A study of Drosophila melanogaster with 34 samples.

Results

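Of the 17559 genes in the deposited table of nuclear RNA counts, 6 are described here: *FASN1*, *FASN2*, *desat1*, *bond*, *eloF* and *Cyp4g1*, which act in the synthesis of fatty acids and cuticular hydrocarbons in *Drosophila melanogaster*. They were selected with their measured levels known, and their levels and fold changes are therefore given as a description, without a test. *Cyp4g1* (FBgn0010019), *eloF* (FBgn0037762) and *bond* (FBgn0260942) were found in the table by name and *desat1* (FBgn0086687) by its name in another letter case. *FASN1* was found as CG3523 (FBgn0027571), its synonym in RefSeq, and *FASN2* as v(2)k05816 (FBgn0042627), by its gene ID. After a filter on low counts, 5 of the 6 genes were fitted together with the other genes, and *eloF* was not.

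RNA-seq was performed on nuclei of the mushroom body (MB), a center of memory in the fly brain, in 15 libraries of 5 groups with 3 replicates each. Flies taken at 0, 5, 10 or 15 min of rest had been illuminated with red light for 5 min, and naïve flies had not. Every group is labelled as line CS10 and expressed CsChrimson, a cation channel opened by red light, and FLAG-KASH, a tag of the nuclear envelope, both through the MBp-LexA driver, with all-*trans*-retinal in the food. The light and the opening of the channel cannot be told apart, since naïve flies carried the channel too. Heads of many flies were pooled for each sample, the labels give no sex or age, and the nuclei were precipitated with an antibody against FLAG. The RNA was fragmented and selected by its poly(A) tail, so that reads come from the 3′ region of a gene, and levels were compared between groups and not between genes.

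Insect hydrocarbons are built from fatty acids. Fatty acid synthase joins acetyl and malonyl units into a chain, desaturases add double bonds, elongases lengthen the chain, reductases turn it into an aldehyde, and a cytochrome P450 of the CYP4G family removes the last carbon to leave a hydrocarbon. In flies this chain of reactions runs in oenocytes, cells under the cuticle of the abdomen, where the products waterproof the body and act as pheromones. *FASN1* encodes the fatty acid synthase of the fat body and other tissues, *FASN2* its close copy in oenocytes, *desat1* a Δ9 desaturase used in many tissues, *bond* and *eloF* elongases of long chains, and *Cyp4g1* the P450 of the last step.

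The libraries held 10392334 to 18809246 counts, and levels are given as CPM, counts brought to the same library size by TMM factors. Markers of MB neurons, such as *ey*, *dac* and *Mef2*, were counted in every library for 10 of 10 genes, with a summed level of 3067 to 3709.9 CPM over all libraries. Markers of photoreceptors, such as *ninaE* and *trp*, were also counted in every library for 10 of 10 genes and summed to 26309.6 to 48068.5 CPM, so that RNA of other cells of the head was present. In such pooled nuclei, fewer cells of a type and less RNA per cell cannot be told apart. The 6 oenocyte markers summed to 135.2 to 152.5 CPM in naïve flies and 188.8 to 221.1 CPM at 0 min of rest. They summed to 170.7 to 221.3 CPM at 5 min, 187.4 to 200.2 CPM at 10 min and 152.8 to 163.3 CPM at 15 min. Every illuminated library thus lay above every naïve one. Nearly all of this summed level came from *Hnf4*, *svp* and *salm*, transcription factor genes that other cells also use. *Fad2*, *CG17560* and *CG17562*, enzyme genes of oenocytes, reached at most 0.379, 1.35 and 0.659 CPM in any library. At 0, 5 and 10 min, 1 of 4 tested oenocyte markers was called higher, and at 5 and 10 min 1, *CG17560*, was called lower.

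*FASN2* and *FASN1* lie in tandem on the plus strand, at chr2L:3043947-3056143 and chr2L:3056598-3068177 of dm6, with 454 bp between them, and *Cyp4g1* lies at chrX:467057-469335 on the minus strand, inside CG32816. *desat1*, *eloF* and *bond* lie on the plus strand at chr3R:12439600-12447616, chr3R:9814161-9815158 and chr3R:22550680-22556494. No stretch of 50 bases in the exons of any of the 6 genes occurs elsewhere in the genome, so that reads are not shared with a copy. The 100 bases upstream of 4 start sites are shown, in the direction of transcription, because CBP had a site at the start of *FASN1* and none at that of *FASN2*, and because *Cyp4g1* and *desat1* were the genes with the largest and the smallest differences. The sequences are from RefSeq (dm6), and capitals mark TATAAA and GAGAG, read on both strands, where overlapping matches run together.
FASN1, chr2L:3056498-3056597, plus strand: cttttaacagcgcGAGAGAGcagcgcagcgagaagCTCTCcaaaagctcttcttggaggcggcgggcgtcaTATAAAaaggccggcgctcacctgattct
FASN2, chr2L:3043847-3043946, plus strand: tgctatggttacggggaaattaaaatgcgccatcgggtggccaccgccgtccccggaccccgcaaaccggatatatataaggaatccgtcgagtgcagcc
desat1, chr3R:12443941-12444040, plus strand: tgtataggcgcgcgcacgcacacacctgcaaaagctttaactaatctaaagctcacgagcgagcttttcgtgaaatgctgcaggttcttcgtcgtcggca
Cyp4g1, chrX:469336-469435, minus strand: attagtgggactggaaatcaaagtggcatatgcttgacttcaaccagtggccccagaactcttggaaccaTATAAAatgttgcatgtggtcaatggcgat
TATAAA began 29 bases upstream of the start in *FASN1* and 30 bases upstream in *Cyp4g1*, and 20.1% of 13968 promoters of protein-coding genes hold it in this window. GAGAG occurred at 3 positions in *FASN1*, 1 of them on the opposite strand, and 13.1% of the promoters hold it. Neither motif was in the windows of *FASN2* and of the *desat1* start site at 12444041. Only the exact letters were searched, so that variants such as tatataag, which the *FASN2* window holds, were not counted. *desat1* has 5 start sites, and the window of the first, at 12439600, which is not shown, holds TATAAA 98 bases upstream.

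*Cyp4g1* showed the largest difference of the 6 genes. It had 8.86, 6.88 and 13.3 CPM at 0 min of rest, 2.37, 1.65 and 1.97 CPM at 5 min, 1.29, 1.93 and 2.55 CPM at 10 min and 14.8, 19.5 and 12.9 CPM at 15 min, against 39.4, 43.2 and 45.2 CPM in naïve flies. Every illuminated library was below every naïve one, the groups at 5 and 10 min overlapped each other, and those at 0 and 15 min overlapped each other and lay between. These levels rested on 102 and 92 reads in all at 5 and 10 min and 603 at 15 min, against 1926 in naïve flies. The log2 fold change against naïve flies was −2.13 ± 0.21 (SE) at 0 min, −4.41 ± 0.25 at 5 min, −4.47 ± 0.25 at 10 min and −1.44 ± 0.21 at 15 min, a level 4.39, 21.2, 22.2 and 2.71 times lower. The level at 15 min was higher than at 10 min, by a log2 fold change of 3.03 ± 0.26. The host gene CG32816 on the same strand had 29.8 CPM at 10 min, against 15.3 CPM in naïve flies (log2 fold change 0.96, edgeR adjusted p = 0.000135), the opposite direction. As both genes lie on the same strand, reads of the pair may be shared, and the part of host RNA in the level of *Cyp4g1* was not tested.

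**Figure D1:**
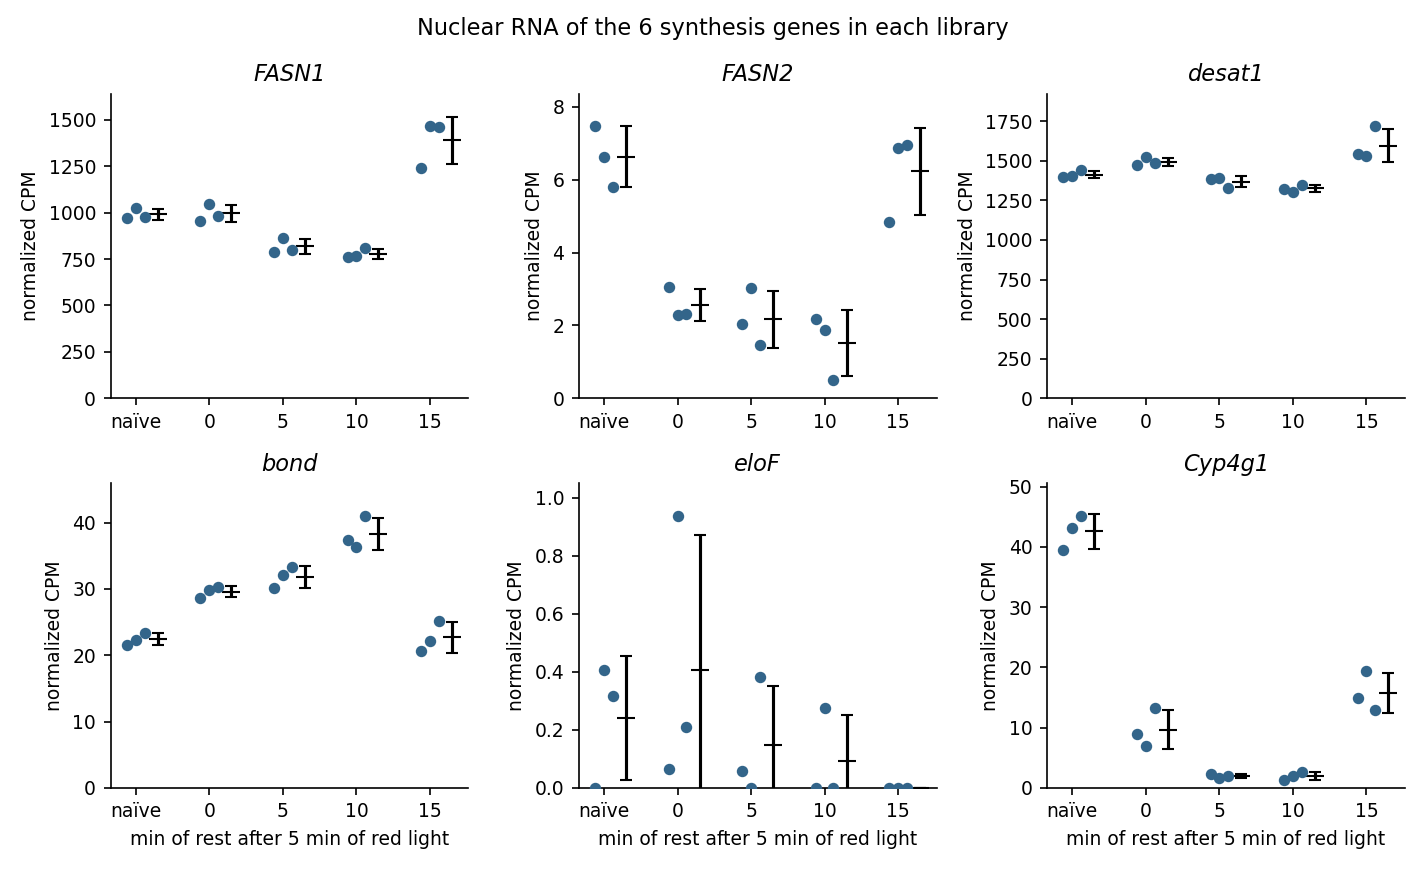
Normalized CPM of the 6 genes in each of 15 libraries (points), with the mean and SD of the 3 libraries of a group (bars), in naïve flies and at 0, 5, 10 and 15 min of rest after 5 min of red light. Each axis starts at 0. *Cyp4g1* averaged 9.68 CPM at 0 min, 1.93 CPM at 10 min and 15.7 CPM at 15 min, against 42.6 CPM in naïve flies.

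*FASN2*, the synthase copy of oenocytes, was low throughout, and lower at 0, 5 and 10 min. It had 3.07, 2.29 and 2.30 CPM at 0 min, 2.03, 3.02 and 1.46 CPM at 5 min, 2.19, 1.86 and 0.498 CPM at 10 min and 4.85, 6.88 and 6.95 CPM at 15 min, against 7.47, 6.63 and 5.79 CPM in naïve flies. The groups at 0, 5 and 10 min lay below both naïve flies and flies at 15 min, which overlapped. Among them, the group at 5 min overlapped the other two, and every library at 10 min was below every one at 0 min. The lowest library, replicate 3 at 10 min, rested on 8 reads. The log2 fold change against naïve flies was −1.38 ± 0.37 at 0 min, −1.60 ± 0.38 at 5 min, −2.12 ± 0.39 at 10 min and −0.09 ± 0.36 at 15 min. Thus *FASN2* was near the naïve level at 15 min, where *Cyp4g1* was still at 0.369 times its naïve level.

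Genes of another organ were lower at 0, 5 and 10 min, as *Cyp4g1* and *FASN2* were. At 15 min they were still lower, as *Cyp4g1* was, while *FASN2* was near its naïve level (log2 fold change −0.09). *Peb* and *PebII*, which encode proteins of the male ejaculatory bulb, and *Sfp87B*, a seminal fluid protein, are products of the male abdomen. Their summed level was 63.9 to 83.7 CPM at 0 min, 0.228 to 0.339 CPM at 5 min, 0.336 to 0.498 CPM at 10 min and 26.4 to 39.6 CPM at 15 min, against 160.9 to 189.4 CPM in naïve flies. *Peb* was lower against naïve flies at 0, 5, 10 and 15 min, with log2 fold changes of −1.34, −9.13, −8.92 and −2.46 (edgeR adjusted p = 7.97e-07, 1.43e-20, 1.98e-20 and 2.81e-12). By Pearson's r, *Peb* was also the gene most like *Cyp4g1* over the 15 libraries (r = 0.95 on log2 CPM, and 0.79 for the deviations from the group means). By Spearman's rho, *Peb* was not among the 3 genes most like *Cyp4g1*. At 5 and 10 min *Peb* rested on 0 to 7 reads per library. For *PebII* and *Sfp87B*, r with *Cyp4g1* was 0.94 and 0.91, but 0.28 and −0.25 for the deviations. For *FASN2*, r with *Peb*, *PebII* and *Sfp87B* was 0.67, 0.70 and 0.73, and −0.70, −0.14 and 0.51 for the deviations. *roX1*, a dosage compensation RNA of males, did not follow this course, with 3723 to 4097 CPM at 10 min, against 2999.5 to 3562 CPM in naïve flies. The list of male-biased genes held these genes and *roX2*, 5 in all. Of them, 0, 1, 2 and 0 were called higher at 0, 5, 10 and 15 min against naïve flies, and 3 were called lower at each time. The part of RNA of the male abdomen in the levels of *Cyp4g1* and *FASN2* was not tested.

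*FASN1* differed in the other direction at the last time. It had 956, 1048 and 982 CPM at 0 min, 790, 865 and 801 CPM at 5 min, 759, 764 and 808 CPM at 10 min and 1242, 1466 and 1459 CPM at 15 min, against 970, 1026 and 977 CPM in naïve flies. Libraries at 0 min overlapped the naïve ones, those at 5 and 10 min lay below them and overlapped each other, and all 3 at 15 min lay above. The log2 fold change was 0.01 ± 0.082 at 0 min, −0.28 ± 0.082 at 5 min, −0.35 ± 0.082 at 10 min and 0.49 ± 0.082 at 15 min, and 0.84 ± 0.082 at 15 min against 10 min. At 15 min, *FASN1* was at 1.40 times and *FASN2* at 0.941 times its naïve level, and whether these fold changes differ was not tested.

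*desat1*, the most evenly expressed of the 6, had 1472, 1522 and 1488 CPM at 0 min, 1386, 1393 and 1328 CPM at 5 min, 1320, 1306 and 1350 CPM at 10 min and 1541, 1529 and 1719 CPM at 15 min, against 1396, 1403 and 1439 CPM in naïve flies. Its groups at 0 and 15 min lay above naïve flies without overlap, and those at 5 and 10 min below. These differences were small, with log2 fold changes of 0.08, −0.05, −0.09 and 0.18, each with an SE of 0.075, and 0.27 at 15 min against 10 min. The levels of *desat1* and *FASN1* followed each other over the libraries (r = 0.90, n = 15, and 0.46 for deviations from the group means), with the 2 genes in the same libraries and scaled by the same factors.

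Some enzymes that supply the synthase were higher at 15 min, and those named here were picked from these same data. Of 13 tested genes of precursor supply and fatty acid synthesis, 6 were called higher, 1 lower and 6 neither at 15 min. Of all tested genes, 5.41% were called higher and 4.24% lower. *ACC* is named as 1 of the 3 genes most like *FASN1* over the libraries. *ACC*, which makes malonyl-CoA, had 471 CPM at 15 min, against 346 CPM in naïve flies (log2 fold change 0.45, edgeR adjusted p = 0.000614), and was not called at 0, 5 or 10 min. *ATPCL* and *AcCoAS*, which make acetyl-CoA, were chosen after their values were seen, and had log2 fold changes of 0.34 and 0.40 at 15 min (edgeR adjusted p = 0.00533 and 0.00136). Genes of fat body, including yolk proteins and lipophorins, summed to 23044 to 24405 CPM at 15 min, against 16121 to 16272 CPM in naïve flies, and 7 of 11 were called higher and none lower. At 5 and 10 min, where *FASN1* lay below naïve flies, they summed to 17405 to 17727 and 16550 to 17149 CPM, above naïve flies. At these times 3 and 2 of them were called higher and 2 and 5 lower. Photoreceptor genes summed to 40022 to 48068.5 CPM at 15 min, against 27960.4 to 32429.6 CPM in naïve flies, with 6 of 10 called higher and none lower. At 5 and 10 min they summed to 26309.6 to 26971.5 and 26579.1 to 27477.4 CPM, with 5 and 6 called lower and none higher. The photoreceptor gene *Arr1* was among the 3 genes most like *FASN1* (r = 0.92, and −0.29 for deviations from the group means). The part of fat body or photoreceptor RNA in the level of *FASN1* was not tested.

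*bond* differed from the other members in being higher at 0, 5 and 10 min. It had 28.7, 29.9 and 30.2 CPM at 0 min, 30.1, 32.1 and 33.2 CPM at 5 min, 37.4, 36.4 and 41.0 CPM at 10 min and 20.7, 22.1 and 25.2 CPM at 15 min, against 21.6, 22.3 and 23.4 CPM in naïve flies. All libraries at 0, 5 and 10 min lay above all naïve ones, those at 0 and 5 min overlapped each other, and those at 15 min overlapped the naïve ones. The log2 fold change was 0.40, 0.50, 0.77 and 0.02 at 0, 5, 10 and 15 min, each with an SE of 0.12, and −0.75 at 15 min against 10 min. An antisense RNA, CR44062, overlaps *bond*, and as the strand setting of the counting is not given, reads of the pair may be shared. CR44062 had 4.35 CPM at 10 min, against 4.22 CPM in naïve flies, and was lower at 15 min, with 1.37 CPM (log2 fold change −1.61, edgeR adjusted p = 0.00692).

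Genes of epidermis and cuticle were also higher at 5 and 10 min. The 6 markers, among them the chitin synthase *kkv* and the chitin deacetylases *serp* and *verm*, summed to 713 to 763 CPM at 0 min, 1219.9 to 1380.1 CPM at 5 min, 2017 to 2216 CPM at 10 min and 341 to 479.5 CPM at 15 min, against 487 to 694 CPM in naïve flies. At 10 min 5 of 6 were called higher and none lower, and at 15 min 3 of 6 were called lower and none higher. Of the 3 genes most like *bond*, *Cht7* encodes a chitinase and *Sulf1* a sulfatase, with r = 0.95 and 0.94 over 15 libraries and 0.41 and −0.02 for deviations from the group means. *Cht7* had 96.2 CPM at 10 min, against 33.4 CPM in naïve flies (log2 fold change 1.53, edgeR adjusted p = 1.6e-10). The part of epidermal RNA in the level of *bond* was not tested.

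**Figure D2:**
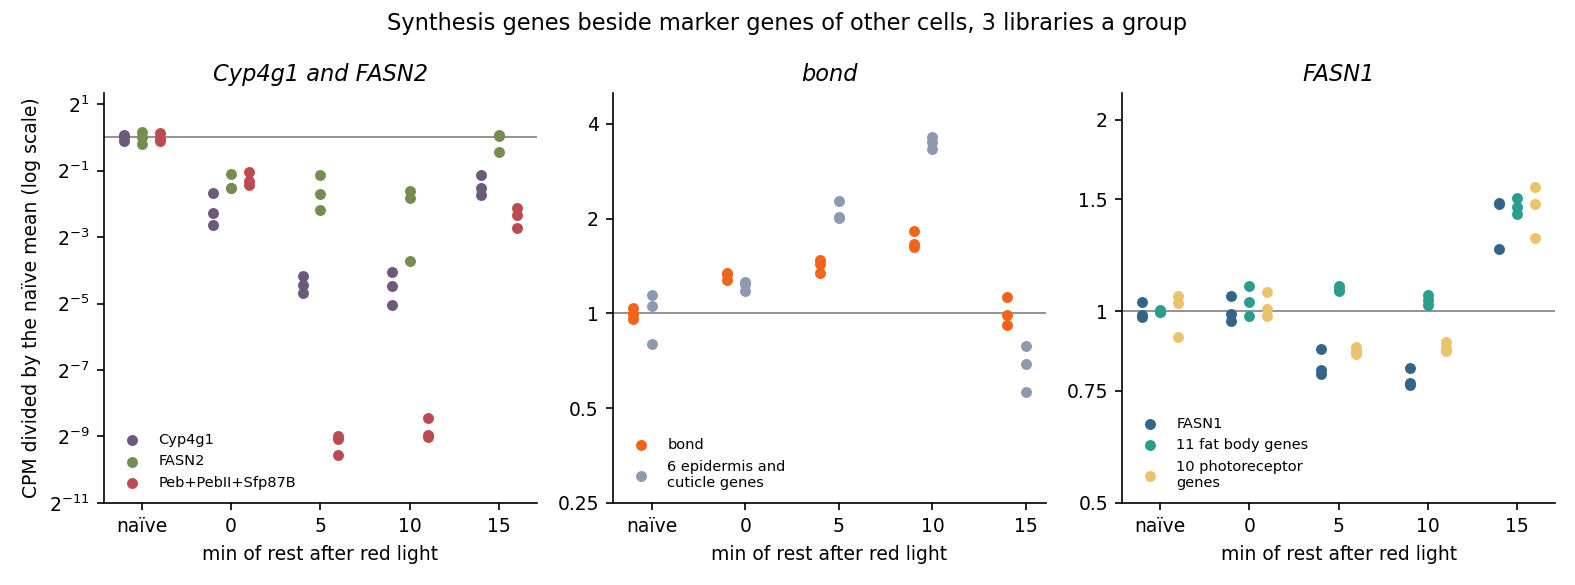
CPM of *Cyp4g1* and *FASN2* (left), *bond* (middle) and *FASN1* (right) in each library, divided by the naïve mean and drawn on a log scale, beside the summed CPM of genes of the male abdomen, of epidermis and cuticle, and of fat body and photoreceptors. At 10 min the summed *Peb*, *PebII* and *Sfp87B* were at most 0.498 CPM and the cuticle genes at least 2017 CPM.

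*eloF*, the elongase of female pheromones, was at the limit of detection. Its libraries held 1, 18 and 4 reads at 0 min, 1, 0 and 6 at 5 min, 0, 4 and 0 at 10 min and 0, 0 and 0 at 15 min, against 0, 6 and 4 in naïve flies. The groups overlapped, and no fold change was fitted. With 0 reads, the libraries at 15 min allow up to 0.297, 0.234 and 0.19 CPM (3 reads, counting error only), so that no difference from naïve flies was detectable at this depth. The gene lies in a cluster of elongase genes, of which CG16904 is 769 bp away on the opposite strand. CG16904 had 0 reads in all libraries at 5 and 10 min and 0, 2 and 21 reads at 15 min, against 45, 16 and 23 reads in naïve flies. Against the naïve mean of 1.79 CPM, it was at least 10.1 times lower at 5 min and 9.57 times lower at 10 min (3 reads per library, edgeR adjusted p = 0.00113 and 0.000703). These bounds leave out the spread of the naïve libraries, 1.08 to 2.47 CPM. CG8534, CG9458 and CG9459 of the cluster had 3, 46 and 22 reads in all 15 libraries and did not pass the filter.

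**Figure D3:**
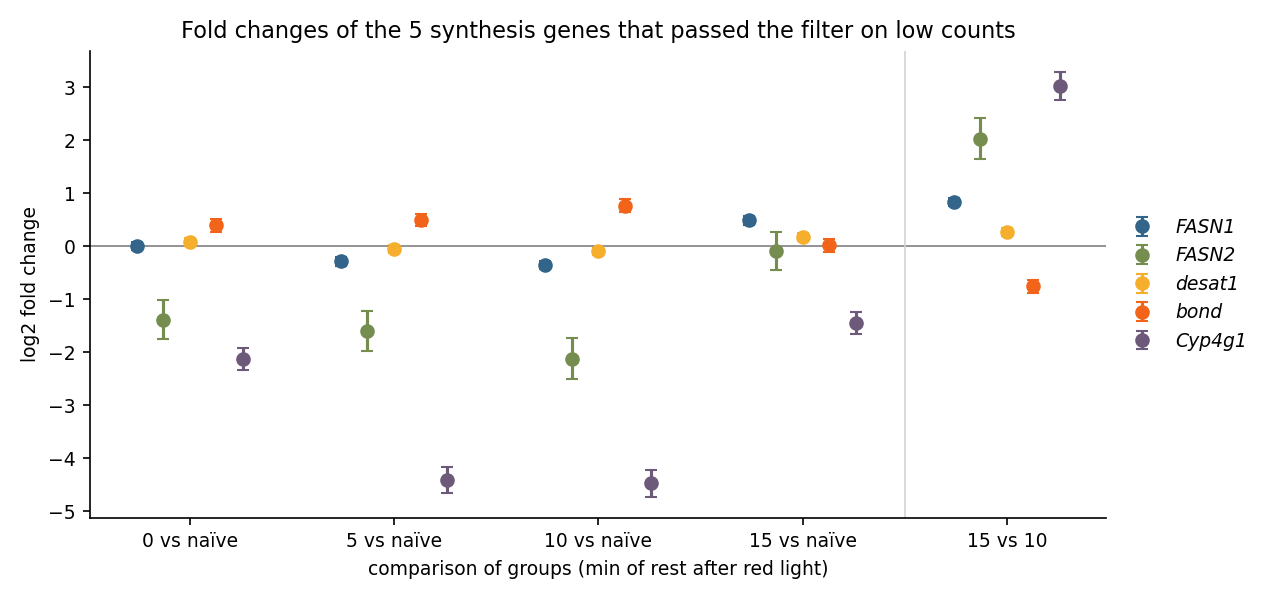
Log2 fold changes (points) and their SE (bars) of the 5 genes that passed the filter on low counts, for 0, 5, 10 and 15 min of rest against naïve flies and for 15 against 10 min. *Cyp4g1* and *FASN2* lie below 0 at 0, 5 and 10 min and *bond* above 0, with *Cyp4g1* at −4.47 and *bond* at 0.77 at 10 min.

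The rule applied to all genes, a Benjamini-Hochberg adjusted p under 0.05 in edgeR, was met at 0 min by 1 of the 5 fitted members in the higher and 2 in the lower direction, where 4.88% of 11670 genes were higher and 3.45% lower. At 5 min it was met by 1 higher and 3 lower, against 8.75% and 6.02% of all genes, and at 10 min by 1 higher and 3 lower, against 14.5% and 13.9%. At 15 min it was met by 1 higher and 1 lower, against 5.41% and 4.24%, and at 15 min against 10 min by 4 higher and 1 lower, against 6.71% and 10.2%. As the members were chosen on these contrasts, nothing is read from these counts. The median log2 fold change of the 5 genes was 0.01, −0.28, −0.35 and 0.02 at 0, 5, 10 and 15 min against naïve flies, where that of all genes was −0.01, −0.02, −0.05 and −0.04. The comparisons share the naïve libraries. Of the genes called, 58.5%, 59.2%, 51.0% and 56.0% were higher at 0, 5, 10 and 15 min and 39.6% at 15 against 10 min, but 42.1%, 35.0%, 30.3%, 31.9% and 47.1% when libraries were scaled by size alone. Scaling by size alone moved the median gene at 10 min by −0.119 on the log2 scale. Upper quartile scaling gave 49.4%, 47.3%, 40.6%, 51.6% and 48.9% higher.

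Beyond the 6 members, 78 genes of lipid metabolism were placed in 6 lists by their known roles, and 64 of them passed the filter. In all, 18, 25, 28 and 20 were called higher and 2, 7, 10 and 3 lower at 0, 5, 10 and 15 min against naïve flies. The shares called higher were 28.1%, 39.1%, 43.8% and 31.2%, where all tested genes had 4.88%, 8.75%, 14.5% and 5.41%. The shares called lower were 3.12%, 10.9%, 15.6% and 4.69%, where all tested genes had 3.45%, 6.02%, 13.9% and 4.24%. The lower shares at 0, 10 and 15 min were thus close to those of all genes. The list of acyl reduction and hydrocarbon formation, the steps around *Cyp4g1*, had 6, 6, 7 and 4 of 14 tested genes higher and 1, 2, 2 and 2 lower at these times, with a median log2 fold change of 0.38 at 10 min, where all genes had −0.05. *Cpr*, the reductase that passes electrons to P450 enzymes, and *Cyp4g15*, the other gene of the CYP4G family, are named for their roles after their values were seen. *Cpr* had 445 CPM at 10 min, against 314 CPM in naïve flies (log2 fold change 0.50, edgeR adjusted p = 2.43e-05). *Cyp4g15* had 69.5 CPM at 10 min, against 77.6 CPM in naïve flies (log2 fold change −0.16 ± 0.12, edgeR adjusted p = 0.35), and was called at no time.

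Fatty acyl-CoA reductase genes moved in both directions. *CG1441*, *CG30427* and *CG8306* were the genes with the largest log2 fold changes among the lists at 0 min, at 0.79, 0.63 and 0.62 (edgeR adjusted p = 6.14e-06, 0.00041 and 3.58e-05). *CG13091* had 0.166 CPM at 10 min, against 3.23 CPM in naïve flies (log2 fold change −4.22, edgeR adjusted p = 0.00137), and was lower at 0 and 5 min too, at −4.36 and −3.76. *FarO* had 11.6 CPM at 10 min and 12.4 CPM at 15 min, against 4.63 CPM in naïve flies (log2 fold changes 1.30 and 1.40, edgeR adjusted p = 0.000324 and 0.000322). *CG17560*, another reductase of oenocytes, had 0 reads at 10 min in any library, against 0.11 to 1.35 CPM in naïve flies, too few reads in the lowest naïve library for a fold. It was called lower at 5 and 10 min (edgeR adjusted p = 0.0488 and 0.0134) and higher at 15 than at 10 min (edgeR adjusted p = 0.0178). *CG12268* and *CG5065* were lower at 15 min, with log2 fold changes of −0.60 and −0.33 (edgeR adjusted p = 0.000971 and 0.0122).

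Among genes of elongation, the list of *bond* and *eloF*, 5 of 14 tested genes were called higher and 5 lower at 10 min, and 1 higher and none lower at 15 min. *CG30008* was lower at 0 min, with 1.63 CPM against 6.63 CPM in naïve flies (0.25 times, edgeR adjusted p = 0.00982). *CG31522* and *sit*, the elongase gene next to *bond*, were lower at 15 than at 10 min, by log2 fold changes of −0.73 and −1.05 (edgeR adjusted p = 3.47e-07 and 0.0394), as was the desaturase gene *CG8630*, at −1.20 (edgeR adjusted p = 7.92e-05). The list of desaturation had 3 of 7 tested genes higher at 10 min and none lower. *Desat2*, 1742 bp from *desat1*, had 3.18 CPM at 10 min, against 2.84 CPM in naïve flies, and was not called.

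In the list of lipid storage and breakdown, 6, 7, 8 and 6 of 11 genes were called higher at 0, 5, 10 and 15 min and none lower. *bmm*, the triglyceride lipase of the fat body, had 247 CPM at 10 min, against 69.1 CPM in naïve flies (log2 fold change 1.84, edgeR adjusted p = 5.92e-16). *Lsd-2*, a protein of the lipid droplet surface, had 950 CPM at 10 min, against 356 CPM in naïve flies (log2 fold change 1.41, edgeR adjusted p = 6.22e-13). Both were also higher at 15 min, by log2 fold changes of 1.42 and 1.16 (edgeR adjusted p = 3.66e-13 and 6.77e-11). In the list of precursor supply, 4, 4 and 6 of 13 tested genes were higher at 5, 10 and 15 min, and *bgm*, an acyl-CoA synthetase gene, was lower at 5, 10 and 15 min, with log2 fold changes of −0.58, −0.91 and −0.39 (edgeR adjusted p = 0.000652, 7.48e-07 and 0.0301) and overlapping groups at 15 min. Of 5 lipophorin genes, 1 was higher and 2 lower at 10 min, and 2 were higher and none lower at 15 min.

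**Figure D4:**
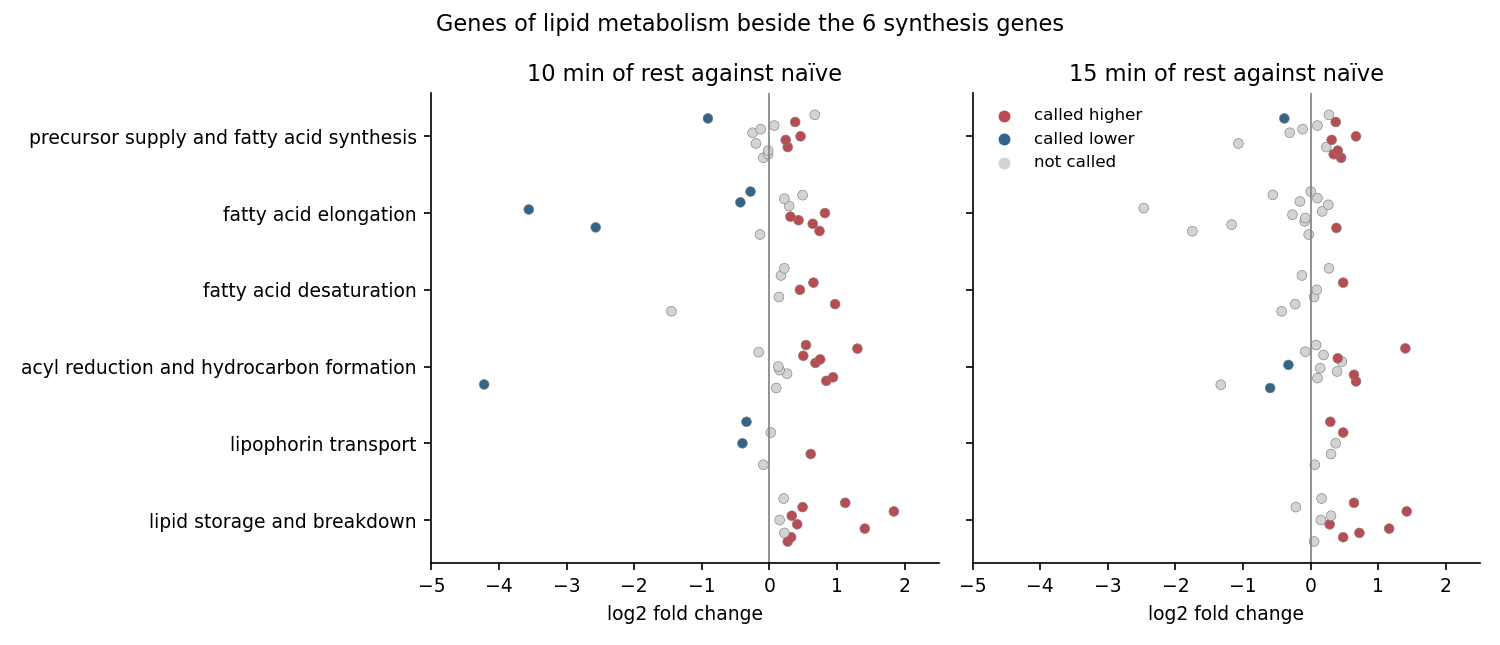
Log2 fold changes of genes of lipid metabolism by list at 10 min (left) and 15 min (right) of rest against naïve flies, 1 point per tested gene, red for called higher, blue for called lower and grey for not called. *CG16904* and *CG17560*, at 0 reads at 10 min, are left out on the left. Storage and breakdown genes lie above 0 at 10 min, with 8 of 11 called higher.

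Over the 15 libraries and 9774 genes with a mean of at least 1 log2 CPM, the genes most like a member were named by Pearson's r of log2 CPM, as a description. For *Cyp4g1* these were *Peb*, *CG6044* and *amon*, at 0.95, 0.95 and 0.94, but deviations from the group means gave 0.79, 0.14 and −0.09, so that the last 2 followed the group means alone. *FASN2* was closest to *Aats-val*, *bsf* and *CG6195*, at 0.89, 0.88 and 0.87 (0.50, 0.29 and 0.57 for the deviations), and *FASN1* to *CG2233*, *Arr1* and *ACC*, at 0.93, 0.92 and 0.92 (0.50, −0.29 and 0.58). *desat1* was closest to *FASN1*, CR44052 and *CG42324*, at 0.90, 0.90 and 0.86 (0.46, 0.20 and 0.68), and *bond* to *CG42748*, *Cht7* and *Sulf1*, at 0.95, 0.95 and 0.94 (0.54, 0.41 and −0.02). Between members, r was 0.77 for *Cyp4g1* and *FASN2* and −0.87 for *Cyp4g1* and *bond*, with −0.53 and 0.04 for the deviations from the group means.

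Binding of CBP, an acetyltransferase, of Rpd3, a deacetylase, and of CoRest-C was measured in MB nuclei by ChIP-seq, apart from the RNA counts. Whether binding goes with the RNA level was not tested. CoRest-C is a form of CoRest without its N-terminal part, which the authors found bound to Rpd3 only after optogenetic activation. The deposited lists hold 6684 sites of CBP, 1237 of CoRest-C and 2717 of Rpd3 in illuminated flies. A gene was counted where a site overlapped it or the 1 kb upstream. CBP had sites at 2 of the 5 tested members, *FASN1* and *desat1*, and 43.5% of 11630 tested and placed genes had 1. Neither CoRest-C nor Rpd3 had a site at any of the 6 genes, and 13.3% and 34.4% of genes had 1. The strongest site, at chr2L:3056256-3056954, had a fold enrichment of 17.1, and 79.2% of CBP sites were at or below this value. Its summit lay 47 bp upstream of the start of *FASN1*, inside the 100 bases shown above and past the end of *FASN2*. A further site of *FASN1*, at chr2L:3058355-3059610, had its summit in an intron and a fold enrichment of 6.17.

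At *desat1*, sites at chr3R:12442679-12443374 and chr3R:12443834-12444238 had fold enrichments of 8.74 and 3.17. The summit of the weaker site lay 20 bp upstream of the start site at 12444041, whose upstream sequence is shown above, and that of the other 651 bp upstream of the start site at 12443582, both in introns of longer transcripts. *FASN2*, *bond*, *eloF* and *Cyp4g1* had no site of CBP in this window. As the lists come from illuminated flies alone and have no values per replicate, no change of binding with light could be read from them.

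**Figure D5:**
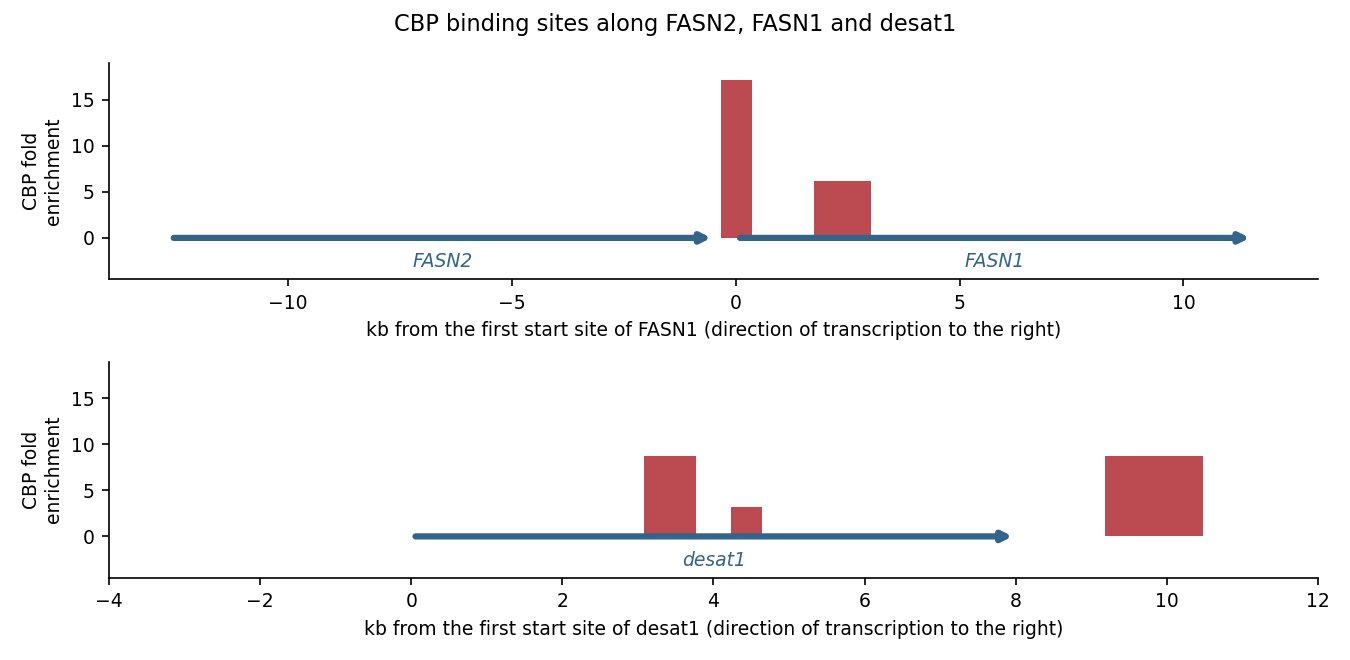
CBP binding sites (bars, as wide as the site) along *FASN2* and *FASN1* (top) and *desat1* (bottom), with genes as arrows in the direction of transcription. The x axis gives kb from the first start site of *FASN1* or *desat1* and the y axis the fold enrichment, which is 17.1 at the start of *FASN1*.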

How the data were processed

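Raw counts per gene, made by the authors with HTSeq over exons, were used as deposited. Before counting, the authors had trimmed adaptors, aligned reads with STAR to the dm6 build and dropped poorly mapped and non-primary alignments. Versions and the strand setting are not given in the sources used here. A deposited table of the authors' own DESeq2 comparison holds fold changes and p-values and was not used. For ChIP-seq, the authors deposited site lists giving, from MACS, a fold enrichment and a −log10 p-value, for peaks that overlapped in at least 2 of 3 illuminated replicates.

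From the counts, genes were filtered by group with the default of edgeR 4.0.16 (R 4.3.3), scaled with TMM, and 11670 were tested with the quasi-likelihood test in 1 fit of the 15 libraries without covariates. Standard errors were taken from the fold change and its F statistic. The labels number the replicates without saying whether they came from separate flies, so p-values measure the spread between these libraries, which may be technical. No pair of libraries agreed within sampling noise (chi-square per degree of freedom of 4.91 or more). A group with at most 3 reads in every library was treated as a bound. A site needed 1 bp of overlap. Positions came from the BDGP6 annotation and sequences from RefSeq. The members, the lists and the tests were chosen with earlier results of these data known. Named genes were the 6 members, for each comparison the called lipid genes with the 3 largest and 3 smallest log2 fold changes, and the 3 genes most like each member. Other genes are named with their values already seen. DESeq2 1.42.0, other scalings, filters, thresholds, windows, a replicate block and leaving out each library were alternatives. The code was tested on simulated data. Figures used matplotlib 3.10.9 in Python 3.11.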

Additional observations from a re-analysis of the deposited data

Results flagged for a closer look

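*desat1* lay above naïve flies in every library at 0 and 15 min of rest and below them in every library at 5 and 10 min. Its mean at 5 min minus that at 0 min was −124.8 CPM, at 10 min minus 0 min −168.5 CPM, at 15 min minus 5 min 227.3 CPM and at 15 min minus 10 min 271.1 CPM. *FASN1* lay above naïve flies in every library at 15 min and below at 5 and 10 min, with 570.1 CPM at 15 min minus 5 min and 611.7 CPM at 15 min minus 10 min. *CG5065*, a fatty acyl-CoA reductase gene, was below naïve flies at 15 min and above at 0 and 5 min, with −94.9 CPM at 15 min minus 0 min and −103.8 CPM at 15 min minus 5 min. Of these differences between rest times, only 15 against 10 min of *desat1* and *FASN1* is described by a fitted value here. The log2 fold changes were 0.27 ± 0.075 for *desat1* and 0.84 ± 0.082 for *FASN1*. The other differences between rest times were not tested.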

How the results depend on the processing

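Of 320 log2 fold changes of members under the alternatives, 12 moved by more than the spread between replicates, no called value changed sign, and none of the 150 with a library left out moved. With library size alone, *desat1* had 0.03, −0.14, −0.21 and 0.09 at 0, 5, 10 and 15 min against naïve flies, *FASN1* −0.37 and −0.47 and *bond* 0.41 and 0.65 at 5 and 10 min. With upper quartile scaling, *desat1* had 0.05, −0.10 and −0.15 at 0, 5 and 10 min and *FASN1* −0.41 at 10 min. A fold change of at least 1.5 left 433, 812, 1473 and 581 genes at 0, 5, 10 and 15 min, and 814 at 15 against 10 min, and 6, 13, 20, 9 and 11 lipid genes. With only the 6 libraries compared, 497, 1023 and 682 genes were called at 0, 5 and 15 min, and 21 lipid genes at 5 min. At 0 min, 578 to 1041 genes were called with a library left out, 578 of them without replicate 3 at 0 min, against 972 with all. A window of 5 kb added 1 gene with a CoRest-C site (*bond*) and 1 with an Rpd3 site (*eloF*). Samples share replicate numbers, but same-numbered libraries did not deviate together (r of −0.10 to 0.05 in 30 pairs). With the replicate block, 895, 1643, 3213 and 1069 genes were called against naïve flies and 1888 at 15 against 10 min, and it changed no other call by more than 1.5 times. By Spearman's rho, none of the 3 genes most like *Cyp4g1*, *FASN1* and *FASN2* and 1 of those most like *bond* were kept. *FASN2* at 8 to 53 reads and *eloF* at 0 to 18 reads per illuminated library before 15 min set the limits of depth.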
